A study of Rattus norvegicus with 12 samples.

Results

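Circular RNAs (circRNAs) are RNA loops made when the spliceosome joins the end of an exon back to the start of the same or an earlier exon. Having no free ends, they resist the exonucleases that degrade linear RNA, and they are abundant in brain. The PVN is a hypothalamic nucleus that holds the neurons releasing corticotropin-releasing hormone, the peptide that starts the hypothalamic–pituitary–adrenal response to stress. The 100 circRNAs described here had enough reads to measure and varied little from library to library in this nucleus. They were those that varied least once the 100 most abundant circRNAs had been set aside.

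They were chosen by their own counts. Of 21914 circRNAs in the count table, 1018 had a count of 20 or more in all 12 libraries. Counts were divided by the library's total and multiplied by 1000000 to give CPM, the count of a circRNA in every 1000000 counts of its library, and the 100 circRNAs with the highest mean CPM in the table were set aside. The remaining 918 were ranked by the coefficient of variation (CV), the standard deviation of CPM over the 12 libraries as a percentage of the mean. The 100 with the lowest CV, 10.9% of those ranked, are called the steady circRNAs below, and the other 818 are called the remaining ranked circRNAs. The 4 circRNAs that the rule names to be left out were not among the 100, since the 3 of them that could be ranked had CVs of 25.2% to 32.9%. Low spread over these libraries is therefore how the steady circRNAs were defined and not a finding about them, and levels in the groups are given as a description without a test.

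The study asked how electroacupuncture (EA) affects gene expression in the brain after surgery, in male Sprague-Dawley rats. The 4 groups were normal controls (NC), which had no operation, rats with partial hepatectomy (HT), rats with hepatectomy and EA (HT+EA), and rats with hepatectomy and sham EA (HT+SEA), with 3 libraries each. EA was given through needles at the Zusanli and Sanyinjiao points before and after surgery, and the sham needles carried no current. All 4 groups were held in a restraint device, and the brains were collected as 1 batch. The operation was done under isoflurane, and whether NC rats were anaesthetised is not given in the sources used here, so hepatectomy and anaesthesia cannot be told apart in HT against NC. Library totals ran from 134903 to 360524 counts, with a median of 220991. The table pairs the identifiers with no gene name, coordinate or sequence, so host genes, sequences and tissue markers were not analysed here and each circRNA is named by its identifier alone. In tissue of this kind, fewer cells of a type and less RNA per cell cannot be told apart.

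The steady circRNAs were well counted but not among the most abundant. Their mean level ran from 178 to 1107 CPM, with a median of 615 CPM, against a median of 283 CPM for the remaining ranked circRNAs. The lowest count of any steady circRNA in any library was 25 and the highest was 408. The 918 ranked circRNAs were split by mean CPM at 215, 307 and 492 CPM into 4 classes of near equal size. From the lowest class up, 2 of 230, 8 of 229, 23 of 229 and 67 of 230 were steady circRNAs. The steady circRNAs thus lay mostly at the upper end of the range from which they were taken.

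The CVs of the 100 ran from 7.05% to 12.9%, with a median of 11.4%. The remaining ranked circRNAs had a median of 20.5% and reached 68.6%. The 100 most abundant circRNAs, which the rule set aside, had a median of 12.1% and a range of 5.57% to 38.2%, so low CVs were also found among them. A CV under 10% was met by 19 of the steady circRNAs and by 31 of the 100 most abundant. In single libraries, the highest CPM was 1.23 to 1.66 times the lowest for the steady circRNAs, and 67 of the 100 stayed under a ratio of 1.5. The median ratio was 1.47 for them, 2.002 for the remaining ranked circRNAs and 1.51 for the 100 most abundant.

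**Figure D1:**
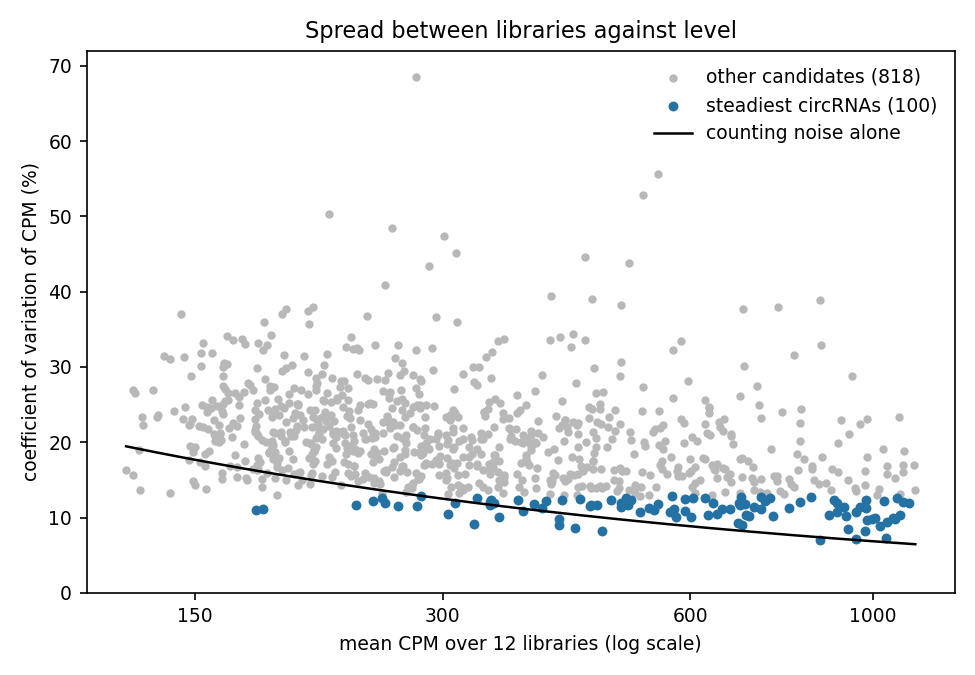
The coefficient of variation over 12 libraries (vertical axis, percent) is plotted against mean CPM (horizontal log axis) for the 918 ranked circRNAs, by class. The 100 most abundant circRNAs, which the rule set aside, are not shown. The 100 steady circRNAs lie along the lower edge, between 7.05% and 12.9%, and the line shows the CV that counting alone would give.

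A part of any CV comes from the number of reads. At a given mean level and the depth of each library, counting error alone (Poisson) would give a CV of 6.51% to 16.2% for the steady circRNAs, with a median of 8.74%. The ratio of observed to counting variance ran from 0.464 to 3.61, with a median of 1.498, against 2.69 for the remaining ranked circRNAs and 5.90 for the most abundant. The observed variance lay below that of counting in 19 of the 100 steady circRNAs and in 28 of the remaining 818, which is 3.42% of them, a difference that comes with choosing on the CV. It was more than 2 times the counting variance in 32 steady circRNAs and in 568, or 69.4%, of the remaining ones.

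The lowest CV belonged to novel_circ_0019025, at 7.05%, which is below the 7.38% that counting alone would give. Its CPM was 807, 889 and 843 in NC, 915, 811 and 793 in HT, 899.9, 979 and 845 in HT+EA, and 806, 811 and 934 in HT+SEA. These 4 groups overlapped one another and no library stood apart. The underlying counts ran from 107 to 353, since the libraries differed in depth. Next came novel_circ_0036575, with 954 ± 68.0 CPM (SD, n = 12), a CV of 7.13% and a counting CV of 7.01%. Its libraries ran from 863 CPM in NC replicate 3 to 1066 CPM in HT+SEA replicate 1.

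The third lowest, novel_circ_0035254, averaged 1036 ± 75.5 CPM (SD, n = 12), with a CV of 7.29% and a counting CV of 6.73%. The other seven of the 10 ran from 8.18% to 8.98%. Among them novel_circ_0028692, novel_circ_0025429 and novel_circ_0015491 had means of 977, 931 and 1019 CPM, and their CVs of 8.18%, 8.53% and 8.94% all exceeded their counting CVs of 6.93%, 7.10% and 6.79%. The 3 least abundant of them had CVs below their counting CVs. These were novel_circ_0027471 with 468 CPM and a CV of 8.23%, novel_circ_0011590 with 434 CPM and 8.60%, and novel_circ_0034675 with 415 CPM and 8.97%, where counting alone would give 10.01%, 10.4% and 10.6%. The tenth, novel_circ_0006345, averaged 694 ± 62.3 CPM (SD, n = 12). Its group means were 744 ± 82.0 CPM in NC, 631 ± 38.8 in HT, 718 ± 31.8 in HT+EA and 682 ± 35.0 in HT+SEA (SD, n = 3 each), and the NC libraries overlapped HT because one NC library read 651 CPM and one HT library read 675 CPM.

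**Figure D2:**
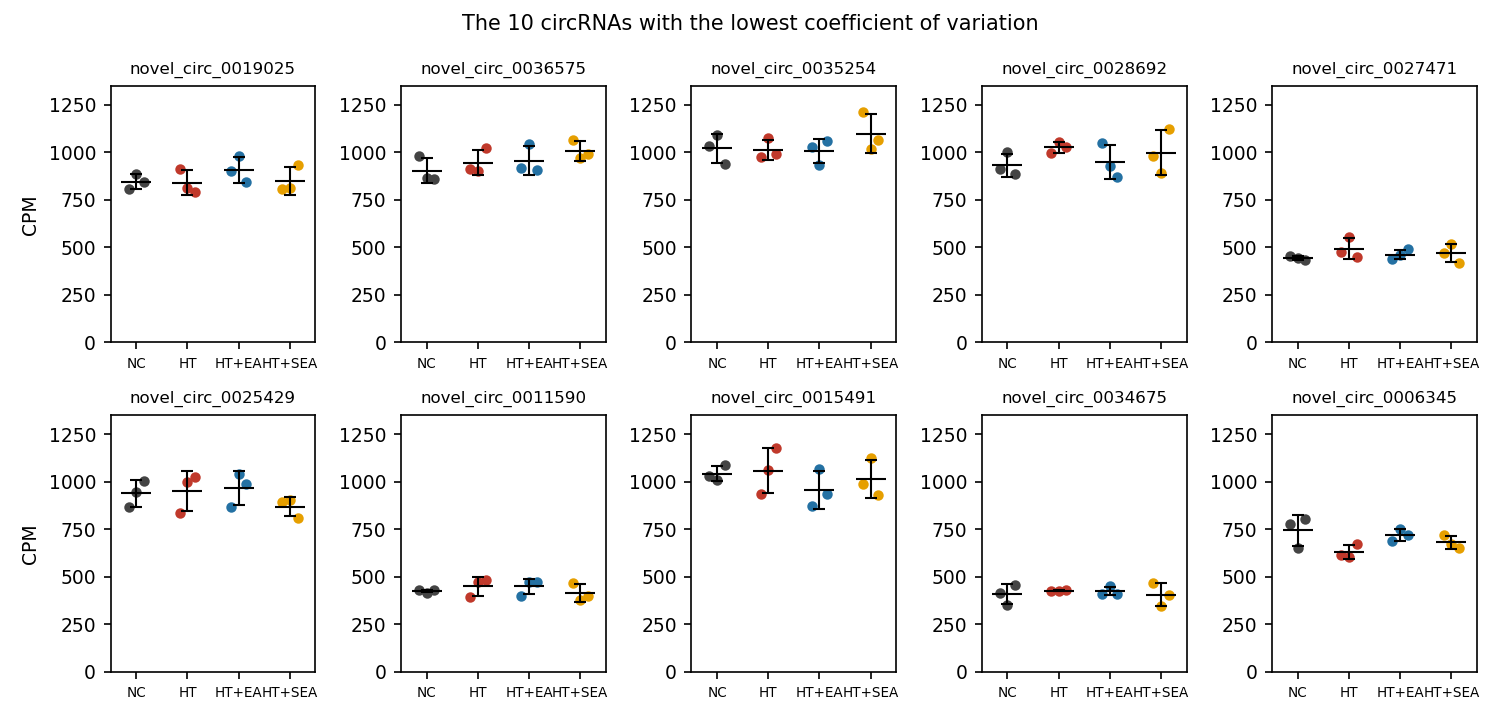
CPM (vertical axis, starting at 0) of the 10 circRNAs with the lowest CV, one panel each, in the 4 groups (horizontal axis). Points are the 3 libraries of a group, the bar is the group mean and its error bar the SD. All 120 points of the 10 panels lie between 344 and 1213 CPM, and in no panel do the 3 libraries of a group all lie above or all lie below the other 9.

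At the top of the level range, the steady circRNAs varied more than counting alone. The 5 with the highest mean were novel_circ_0021524 with 1107 CPM, novel_circ_0007225 with 1087 CPM, novel_circ_0030552 with 1078 CPM, novel_circ_0004791 with 1068 CPM and novel_circ_0018568 with 1064 CPM. Their CVs were 11.97%, 12.1%, 10.3%, 12.6% and 9.77%, and their variance was 2.17 to 3.61 times that of counting. The largest ratio of all 100 was that of novel_circ_0004791, whose CPM ran from 863 in NC replicate 3 to 1318 in HT replicate 1.

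At the low end of the level range, a circRNA could be chosen only with a CV below that of counting, since counting alone gives more than the highest CV taken. The 5 with the lowest mean were novel_circ_0034456 with 178 CPM, novel_circ_0034986 with 181 CPM, novel_circ_0001268 with 236 CPM, novel_circ_0024402 with 247 CPM and novel_circ_0005883 with 253 CPM. Their CVs of 11.1%, 11.2%, 11.7%, 12.2% and 12.6% thus had to lie below the CV of counting, which was 16.2%, 16.1%, 14.1%, 13.8% and 13.6%. The lowest ratio of observed to counting variance was 0.464, in novel_circ_0034456, whose counts ran from 27 to 63. The next lowest were novel_circ_0034986 at 0.484 and novel_circ_0019451, a circRNA of 328 CPM, at 0.586. These low ratios were favoured by the choice and say nothing of how steady the circRNAs are beyond counting error.

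The limit of the choice fell in a dense part of the ranking. The last 3 taken were novel_circ_0007031, novel_circ_0021510 and novel_circ_0032054, with CVs of 12.75%, 12.88% and 12.898%. The first 3 not taken were novel_circ_0026320 at 12.901%, novel_circ_0025085 at 12.97% and novel_circ_0028600 at 12.98%. The last taken and the first not taken thus had almost the same CV.

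The steady circRNAs together took nearly the same share of every library, which a choice on low spread of each one's share favours. Their share of the counts ran from 6.25% to 6.48% of the library total, with a median of 6.38%. By group it was 6.38% ± 0.121 in NC, 6.38% ± 0.0345 in HT, 6.39% ± 0.0783 in HT+EA and 6.36% ± 0.0596 in HT+SEA (SD, n = 3 each), and the groups overlapped. The summed CPM had a CV of 1.08%, where counting of the 8662 to 23345 summed counts per library would give 0.857%. Among the steady circRNAs, correlations of CPM over the 12 libraries had a median of −0.0012 across 4950 pairs, with quartiles of −0.234 and 0.222. The pairs share the 12 libraries and their depths, and the correlations were centred near 0.

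Libraries differed in how far the steady circRNAs strayed from their own means. The SD of the deviations was largest in NC replicate 3, at 12.9% of the mean, where counting alone would give 8.60%. It was 12.5% against 10.2% in HT replicate 1 and 10.1% against 11.9% in HT replicate 3, the smallest library. The choice used these libraries, which favours small deviations in them. Among the remaining ranked circRNAs the SD was also largest in NC replicate 3, at 28.0%, with 25.1% in HT replicate 1 and 23.6% in HT replicate 3. The median ratio of CPM to the circRNA's mean stayed between 0.980 in HT+SEA replicate 1 and 1.03 in NC replicate 3. NC replicate 3 held the highest CPM of 15 steady circRNAs. The lowest CPM of 13 circRNAs lay in HT replicate 1 and that of another 13 in HT+EA replicate 1.

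**Figure D3:**
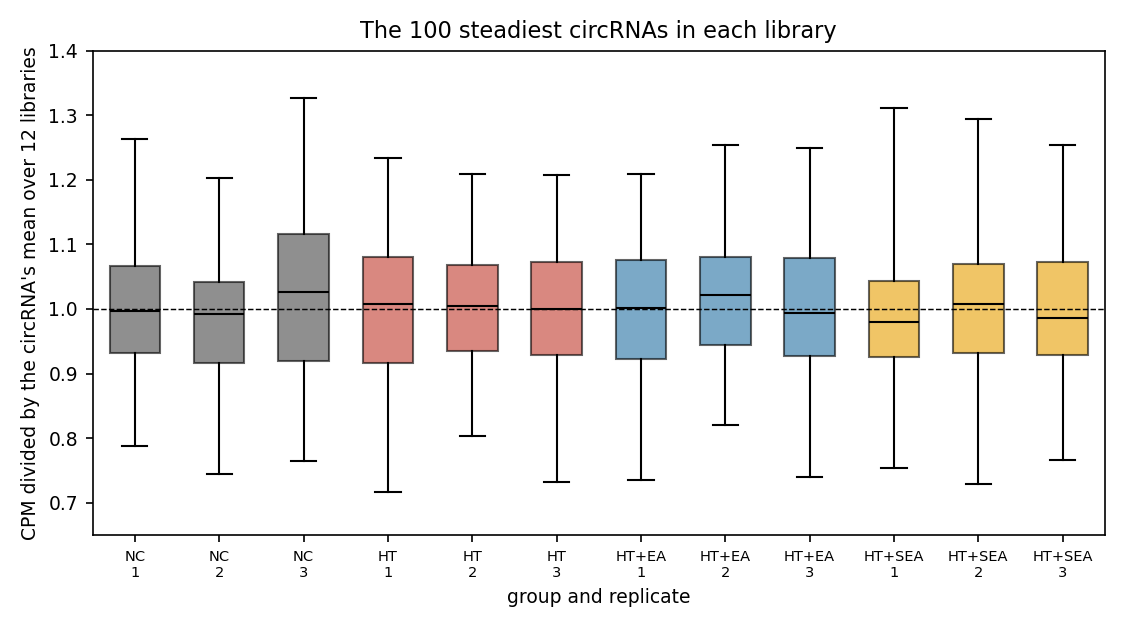
Each of the 100 steady circRNAs is plotted in each library (horizontal axis, group and replicate) as its CPM divided by its mean over the 12 libraries (vertical axis), with the line at the median. Values run from 0.717 in HT replicate 1 to 1.33 in NC replicate 3, and the medians stay between 0.980 and 1.03.

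The choice was repeated with each library left out, so that the 100 circRNAs chosen on 11 libraries could be read in one that took no part. In that library the root mean square deviation from the mean of the other 11 was 13.03% to 22.4%, with a median of 15.8%. The remaining ranked circRNAs had 20.8% to 32.5%, with a median of 23.9%, and the chosen ones were lower in all 12 libraries. In the highest of the 4 level classes alone, the medians were 13.7% for the chosen and 19.4% for the remaining, again lower in 12 of 12. Divided by counting error, the spread of the chosen was 1.67 times counting against 1.85 times, lower in 11 of 12. The 12 left-out libraries are not independent of one another, since each pair of choices shares 10 libraries, so no test is given.

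The spread was larger in a library left out than in those that made the choice, where the chosen circRNAs had a median CV of 11.2% over the 11. The deviation in a left-out library also carries the error of the mean of the other 11. Of the chosen circRNAs, 3 were listed at 0 in the library left out of their choice, in 2 of the 12 libraries, and these were named after their values were seen. Of the remaining circRNAs, 0 to 19 for each left-out library were listed at 0 in it (median 5.5), with 19 in HT replicate 3 and 15 in HT+SEA replicate 2, so zeros raised the spread on both sides. Novel_circ_0016277 had counts of 83 to 191 in the other 11 libraries and novel_circ_0024495 had 55 to 114, and both were at 0 in HT replicate 3. Novel_circ_0020349 had 23 to 53 elsewhere and was at 0 in HT+SEA replicate 3. The median absolute deviation, which such zeros hardly move, was 10.7% for the chosen and 14.5% for the remaining circRNAs, lower in 12 of 12 libraries, and in the highest level class it was lower in 10 of 12. Of the 100 steady circRNAs, 68 were chosen in all 12 repeats and 19 in 6 or fewer, and 116 other circRNAs were chosen at least once but none in all 12.

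**Figure D4:**
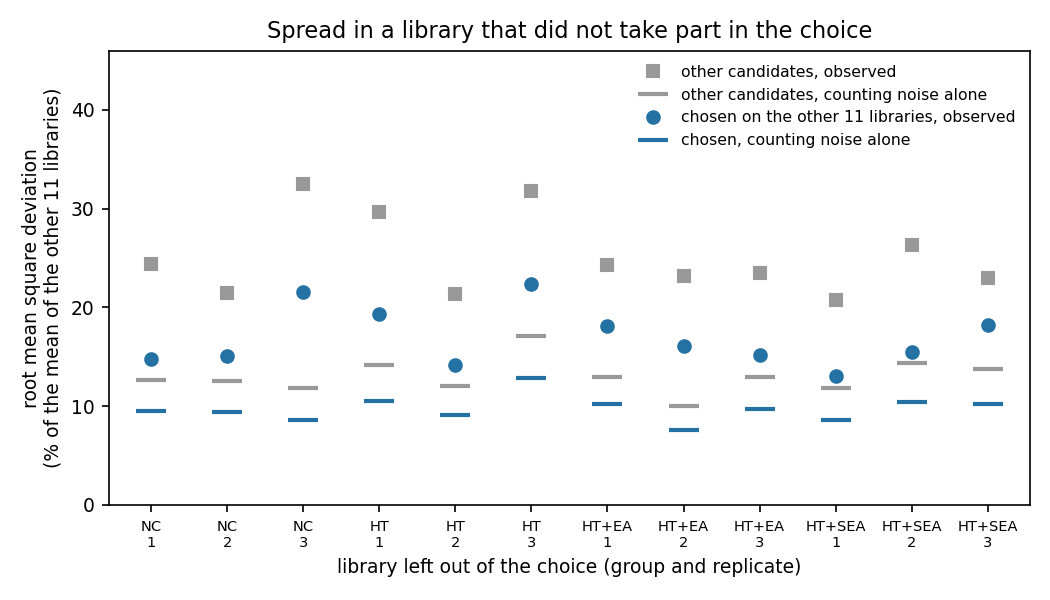
Root mean square deviation (vertical axis, percent of the mean of the other 11 libraries) in the library left out of the choice (horizontal axis, group and replicate), for circRNAs chosen on the other 11 libraries and for the remaining ranked circRNAs, with the spread that counting alone would give. The chosen circRNAs lie between 13.03% and 22.4%, below the remaining ones in all 12 libraries.

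Between groups, the mean CPM of the steady circRNAs differed little, as the choice requires. The highest of the 4 group means was 1.04 to 1.303 times the lowest, with a median of 1.16. The median was 1.29 for the remaining ranked circRNAs and 1.17 for the 100 most abundant, near that of the steady ones. The highest mean was found in NC for 25, HT for 25, HT+EA for 24 and HT+SEA for 26 of the 100. The share of the variation over libraries that lay between groups had a median of 30.2% and a mean of 32.9% over the steady circRNAs, and a median of 25.4% and a mean of 28.4% over the remaining ranked ones. Libraries with no group structure would give a mean of 27.3%. At the extremes, picked after their values were seen, novel_circ_0038195 had the most equal group means and novel_circ_0038467 the least equal. The former had 614 ± 114 CPM in NC, 619.8 ± 5.9 in HT, 629.8 ± 129 in HT+EA and 639 ± 61.2 in HT+SEA (SD, n = 3 each). Equal means thus went with wide spread within NC and HT+EA. The latter had 842 ± 55.9 CPM in NC, 998 ± 16.5 in HT, 1098 ± 47.7 in HT+EA and 988 ± 112 in HT+SEA.

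Fold changes came from edgeR's quasi-likelihood fit over all 4838 circRNAs that passed its filter on low counts, with all 100 steady circRNAs among them. In HT against NC, none of the 100 had an unadjusted p below 0.05, where 3.41% of all tested circRNAs did. Their log2 fold changes lay between −0.34 and 0.31 (median −0.04), and 89 of 100 were within 0.25 of 0, as were 45.4% of all tested. The shares are not of like precision, since all tested circRNAs include many at lower counts. In this contrast the median standard error was 0.16 for the steady circRNAs and 0.45 for all tested. In HT+EA against HT the range was −0.27 to 0.36 (median 0.03), 91 of 100 were within 0.25 of 0 beside 43.5% of all tested, and 1 had an unadjusted p below 0.05 beside 4.77%. In HT+SEA against HT the range was −0.30 to 0.29 (median 0.0027), 97 were within 0.25 of 0 beside 45.6%, and 0 had such a p beside 3.29%. In HT+EA against HT+SEA the range was −0.31 to 0.37 (median 0.01), 89 were within 0.25 of 0 beside 46.1%, and 3 had such a p beside 3.89%. In the test of any difference among the 4 groups it was 0 of 100, beside 2.48%. With DESeq2 the 4 contrasts gave 0, 0, 0 and 2 steady circRNAs at that threshold, and the test of any difference gave 0. Over all 4838 tested circRNAs DESeq2 called 108, 143, 104 and 119 in the contrasts and 76 in the test of any difference. These counts are descriptions, since the choice used the same libraries, and the contrasts share libraries with one another. After adjustment over all tested circRNAs none of the 4838 passed in any contrast, that is 0.0%, in this edgeR fit. DESeq2 called 2, 4, 2 and 1 circRNAs in the 4 contrasts in that order, and some other edgeR settings also gave adjusted calls, as given below.

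**Figure D5:**
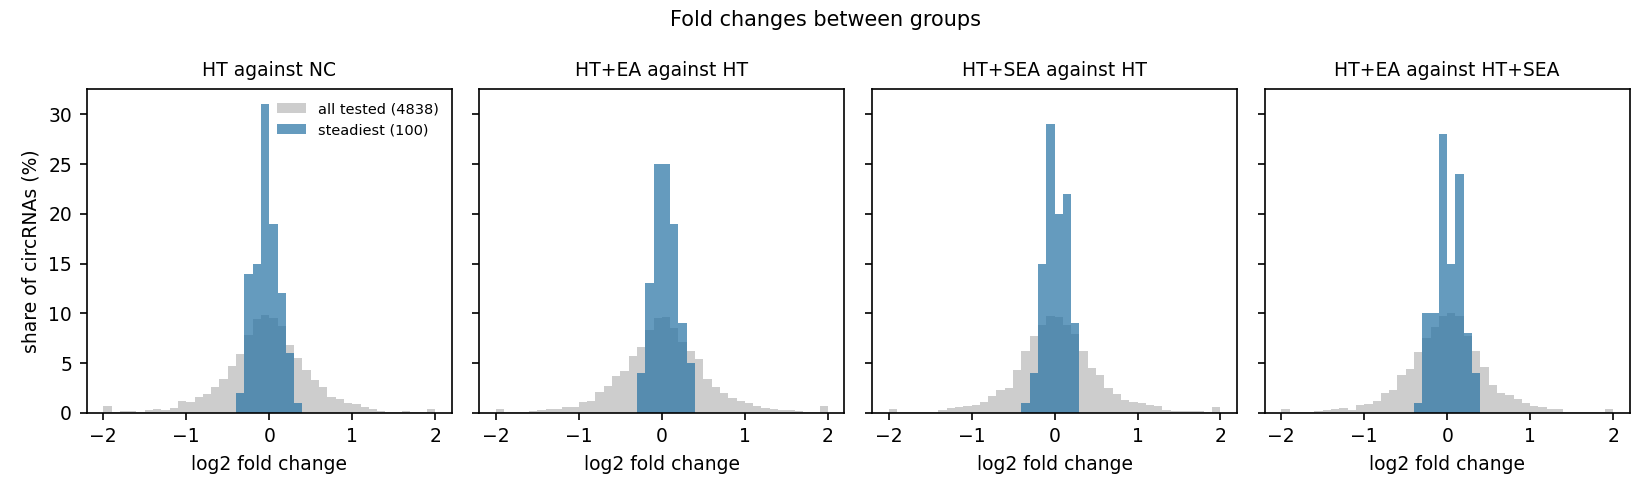
Distribution of log2 fold changes (horizontal axis) in the 4 contrasts, one panel each, for the 100 steady circRNAs and all 4838 tested circRNAs (vertical axis, share of circRNAs in percent). The steady circRNAs lie between −0.34 and 0.37 in every contrast.

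The members with the most extreme fold changes were named for each contrast. In HT against NC the highest was novel_circ_0036510, with 448, 386 and 424 CPM in NC and 518, 521 and 556 CPM in HT. Its fitted log2 difference was 0.31, with a standard error (SE) of 0.16. The lowest was novel_circ_0034543, with 479, 438 and 455 CPM in NC and 332, 412 and 363 CPM in HT, at −0.34 with an SE of 0.18. In both, the NC and HT libraries did not overlap. In HT+EA against HT the highest was novel_circ_0024402, with 218, 214 and 215 CPM in HT and 298, 294 and 222 CPM in HT+EA, at 0.36 with an SE of 0.20. Here the groups did not overlap either, but one HT+EA library lay beside the HT ones. The lowest was novel_circ_0017059, with 643, 557 and 645 CPM in HT and 462, 541 and 489.8 CPM in HT+EA, at −0.27 with an SE of 0.16. In HT+SEA against HT the highest was novel_circ_0020401, at 0.29 with an SE of 0.15, with 637, 815 and 845 CPM in HT and 841, 986 and 949 CPM in HT+SEA. There the groups overlapped, and the value was 0.17 without HT replicate 1. The lowest was novel_circ_0010819, at −0.30 with an SE of 0.14, with 785, 686 and 815 CPM in HT and 519, 648 and 664 CPM in HT+SEA, with no overlap.

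Libraries that did not overlap between 2 groups were counted over the 100. Between NC and HT this was so for 15 (9.36% of all tested), 9 of them higher in HT (4.98%) and 6 lower (4.38%). Between HT+EA and HT it was so for 18 (11.3%), 13 higher in HT+EA (5.21%) and 5 lower (6.06%). Between HT+SEA and HT it was so for 10 (9.53%), 5 higher in HT+SEA (4.61%) and 5 lower (4.92%). Between HT+EA and HT+SEA it was so for 16 (11.8%), 10 higher in HT+EA (5.6%) and 6 lower (6.16%). The percentages give the share of all 4838 tested circRNAs with the same pattern.

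In HT+EA against HT+SEA, both extremes were among the 3 with an unadjusted p below 0.05. Novel_circ_0005656 had 597, 688 and 730.0 CPM in HT+EA and 449.6, 603 and 524 CPM in HT+SEA, so that 1 HT+EA library lay below the highest HT+SEA one, at 0.37 with an SE of 0.15. Novel_circ_0036835 had 615, 632 and 698 CPM in HT+EA and 822, 850.5 and 752 CPM in HT+SEA, at −0.31 with an SE of 0.13, with no overlap. Its means were 795 ± 36.4 CPM in NC, 673 ± 26.9 in HT, 648 ± 43.4 in HT+EA and 808 ± 50.5 in HT+SEA (SD, n = 3 each), so HT and HT+EA were near each other, as were NC and HT+SEA. Its unadjusted p rose above 0.05 when HT replicate 3, NC replicate 1, or either of replicates 1 and 2 of HT+EA or of HT+SEA was left out. That of novel_circ_0005656 did so without HT+EA replicate 2 or 3, or HT+SEA replicate 1 or 3.

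The third was novel_circ_0023247, also the 1 such circRNA of HT+EA against HT, which was picked out after its values were seen. Its CPM was 457, 525 and 497 in NC, 496, 476 and 512 in HT, 611, 607 and 605 in HT+EA, and 492, 501 and 467 in HT+SEA. All 3 HT+EA libraries lay above all 9 others, and the other 3 groups overlapped. The group means were 493 ± 34.3, 494 ± 17.6, 608 ± 2.8 and 487 ± 17.8 CPM (SD, n = 3 each). The HT+EA counts were 131, 219 and 131, so counting error alone is larger than the SD of 2.8 CPM. The log2 fold change was 0.33 with an SE of 0.14 against HT and 0.33 with an SE of 0.14 against HT+SEA. Neither stayed past that threshold with DESeq2 or without any 1 of the HT+EA libraries. Its CV was 10.7%, rank 33 of the 100, and 89.4% of its variation lay between groups, the highest share of the 100. The HT+EA libraries also lay above all others in novel_circ_0000245, novel_circ_0021510 and novel_circ_0032158, making 4 steady circRNAs beside 0.434% of all tested. In none did they lie below all others, beside 0.537%. NC libraries lay above all others in 2 (0.558%) and below in 3 (0.331%), HT libraries above in 1 (0.558%) and below in 1 (0.475%), and HT+SEA libraries above in 0 (0.455%) and below in 0 (0.455%).

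The rule took circRNAs whose share of the library total varied least, so a scale built from them has to follow the library totals. A size factor from the 100 was 0.980 to 1.02 times the factor from library totals, 0.964 to 1.04 times that from TMM (edgeR's scaling, a trimmed mean of ratios between libraries) and 0.981 to 1.03 times that from median ratios. The furthest from TMM were HT replicate 3 and NC replicate 3. The biological CV in edgeR is a fitted estimate of the spread left after counting error, drawn for each circRNA toward that of the others. For the steady circRNAs it had a median of 14.5%. This was above their median observed CV of 11.4%, so it is not the spread that they themselves showed beyond counting. For all tested circRNAs, which include many at lower counts, the median was 29.4%. The lower value for the steady circRNAs too follows from the choice. Of the study's list of node circRNAs, which were picked for differences between groups, 8 were among the 918 ranked, and their CVs were 25.2% to 68.6%. None was a steady circRNA, which 2 choices of opposite kind on the same libraries would give.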

How the data were processed

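PVN libraries of total RNA from 12 rats were strand-specific. The deposited table holds raw counts of reads per circRNA made by the authors. The labels list HISAT2 and featureCounts and a human genome build, while the study's methods name a rat genome and the series text calls the animals mice; the program that called the circRNAs is not given in the sources used here. Replicates are named as separate libraries. 12 columns whose names match no label were not used.

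CPM was taken from the column totals. Counting variance was the Poisson variance at each library's depth. edgeR 4.0.16 in R 4.3.3 used filterByExpr (4838 circRNAs kept), TMM and a quasi-likelihood test with 4 groups in 1 fit. Alternatives were DESeq2 1.42.0, median-ratio scaling, no filter, only the groups compared, a replicate block, other choice rules and leaving out each library. The repeat of the choice on 11 libraries was added after seeing the data. Scripts were tested on simulated data.

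The members and lists were chosen with earlier results of these data known. Named circRNAs were the 10 lowest CVs, the 5 highest and 5 lowest means, the 3 on each side of the limit, the extremes of each contrast and of the variance ratio, and members on the node list.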

Additional observations from a re-analysis of the deposited data

How the results depend on the processing

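Of the 100 steady circRNAs, 55 were kept when none of the most abundant was dropped, 51 with the median absolute deviation over the median, and 45 with the variance in excess of counting, against 67 with the mean of the within-group CVs and 89 to 96 with other scalings, count minimums or the SD of log2 CPM. Leaving out a library kept 79 (without HT replicate 3) to 89, and the median CV then ran from 10.96% to 11.7%. Membership thus depended on the measure of spread. Members called at an unadjusted p below 0.05 were few under every fit. In HT+EA against HT the 1 called was 0 with DESeq2, with no filter, with only the groups compared and with the replicate block. Over all tested circRNAs these fits called 143 of 4838, 661 of 21914, 168 of 3841 and 199 of 4838. In HT+SEA against HT the 0 called was 1 with the replicate block, beside 137 of all 4838 tested. In HT+EA against HT+SEA the 3 called were 0 with no filter, beside 534 of 21914 tested. With only the groups compared they were 5, beside 200 of 3893 tested. They ran from 0 without HT+EA replicate 2, beside 167 of 5390, to 4 without NC replicate 2, beside 195 of 5387. Without 1 library, HT against NC gave 0 to 2 members, HT+EA against HT also 0 to 2, and HT+SEA against HT 0 to 1. Over all tested circRNAs the calls then ran from 161 to 274, 181 to 324 and 145 to 257.

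Over all tested circRNAs, the calls were 165 between HT and NC, 231 between HT+EA and HT, 159 between HT+SEA and HT, 188 between HT+EA and HT+SEA and 120 for any difference among groups, and the same order holds below. DESeq2 gave 108, 143, 104, 119 and 76, and no filter gave 620, 661, 595, 534 and 507. After adjustment, 28, 36, 25, 36 and 70 of the 21914 tested with no filter passed 0.05, with no steady circRNA among them. Only the groups compared gave 83 in HT against NC. Without HT replicate 2 the first and the third rose to 274 and 257. Correlations of log CPM between libraries of different groups were taken after each group's mean was subtracted. They were −0.0883 to 0.104 for same-numbered libraries and −0.0915 to 0.110 for differently numbered ones. This gave no sign that the numbers pair the samples, though it cannot exclude a pairing. The replicate block gave 136, 199, 137, 163 and 87. The 2 calls of novel_circ_0023247 were both lost with DESeq2, with no filter, with the replicate block and without any 1 HT+EA library. The call against HT was also lost with only the groups compared and without any 1 HT library or HT+SEA replicate 3, and that against HT+SEA without any 1 HT+SEA library.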
